A study of Mus musculus with 6 samples.

Results

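Genes that remodel or mark chromatin were followed as a set of 57 members: subunits of SWI/SNF, other ATP-dependent remodellers, Polycomb repressive complex 2 (PRC2), histone methyltransferases and demethylases, histone deacetylases and acetyltransferases, enzymes of DNA methylation, and cohesin, CTCF and related loop organisers. A peak of open chromatin belonged to a member when the gene column of the authors' deposited table named that member. By this rule 240 of the 70494 peaks (0.34%) belonged to the set, and all 57 members had at least 1 peak, among 26796 genes with a peak. Peaks were measured by ATAC-seq, whose transposase cuts open DNA and tags it for sequencing. The cells were definitive endoderm, the embryonic layer that forms gut, liver and pancreas, made from a mouse epiblast stem cell line (7H, a BL6/129 hybrid).

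The line carries OTX2, a homeodomain transcription factor of the early embryo, fused to a degron and to EGFP, and every group shares this fusion. The small molecule dTAG13 links the degron to a ubiquitin ligase so that the fusion protein is broken down, and DMSO, its solvent, served as control. Cells received 40 ng/ml Activin A and 3 uM CHIR for 16 h and then 100 ng/ml Activin A and 100 nM LDN for 24 h, with dTAG13 or DMSO added at the primitive streak stage for 24 h. From each treatment 3 libraries were made, each from 50000 live sorted cells, and the submitters name them technical replicates. All 6 libraries come from 1 cell line, and the p-values below measure the spread between these libraries, which may be technical.

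Remodellers of the SWI/SNF, ISWI, CHD and INO80 families use ATP to slide, space or evict nucleosomes. Histone-modifying enzymes add or remove methyl and acetyl groups that are read by other proteins: PRC2 methylates H3K27 at silent developmental genes, the KMT2 enzymes methylate H3K4 at promoters and enhancers, and the acetyltransferases CBP and p300 acetylate histones at active enhancers. DNMT enzymes methylate cytosine and TET enzymes oxidise the methyl group, while cohesin and CTCF fold the genome into loops. Most of these proteins are made in nearly every cell type, from promoters rich in CpG.

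Promoter peaks of the endoderm genes checked were present for 9 of 9 (among them Sox17, Foxa2 and Gata6), but also for 3 of 4 epiblast, 3 of 4 mesoderm and 2 of 2 neural genes; accessibility does not measure expression, and the parts of other cell types in the results below were not tested. The authors' deposited table gives 1 mean per peak, not a value per library. For weak peaks the whole read numbers behind that mean could be solved for, together with size factors, the numbers by which each library's counts are divided to allow for its depth. They came to 1.35, 1.31 and 1.09 for the DMSO libraries and 0.961, 0.823 and 0.780 for the dTAG13 libraries. Each DMSO library thus had the larger size factor. These factors come from reads counted in peaks, and the total reads of each library are not known. Reads were recovered for 194 of the 240 member peaks, with a median of 8 reads per library and peak. In each list of reads below, the libraries of a group stand in order of falling size factor, because their replicate numbers are not known. A lower signal in these bulk libraries can mean fewer cells with the site open or less opening per cell, and the 2 cannot be told apart.

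Accessibility was called lower in dTAG13 at 7 of the 238 member peaks with an adjusted p-value, and at none was it called higher. A call is an adjusted p under 0.05 by the authors' deposited table, and among all 69128 peaks tested 3.79% were called lower and 1.47% higher, 5.26% together. The 7 peaks lay at 7 genes: Tet2, Arid2, Smarca5, Satb1, Tet3, Nipbl and Kdm5b. None was the most accessible peak of its gene, 6 of the 7 lay outside promoters, and all 7 were in the DMSO peak list alone. Among all 2622 peaks called lower, 2406 lay outside promoters and 899 were the peak with the highest count of their gene. Of all peaks, called or not, 40.1% were in the DMSO list alone. That share was not counted for all peaks called lower. The lists were called from these same libraries, so membership adds no support to the calls. At an unadjusted p under 0.05, 27 member peaks were lower and 12 higher, which is 11.2% and 5.0% of the 240, beside 12.7% and 7.00% of all peaks.

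The DNA under 6 of these 7 peaks is printed here because it allows the OTX consensus GGATTA to be looked for where the change was called. Each window holds 201 bases around the peak's midpoint in GRCm38 (mm10), plus strand, 5′ to 3′, with matches to the consensus on either strand in capitals.
Arid2 chr15:96297168-96297368: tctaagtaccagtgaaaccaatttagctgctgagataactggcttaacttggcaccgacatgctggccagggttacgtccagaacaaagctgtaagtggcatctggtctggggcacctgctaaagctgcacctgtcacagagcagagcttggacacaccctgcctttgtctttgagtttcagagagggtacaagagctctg
Smarca5 chr8:80738445-80738645: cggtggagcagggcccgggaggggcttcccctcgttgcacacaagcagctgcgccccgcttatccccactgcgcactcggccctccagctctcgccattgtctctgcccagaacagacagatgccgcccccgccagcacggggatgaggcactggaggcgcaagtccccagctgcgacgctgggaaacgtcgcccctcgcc
Satb1 chr17:51631899-51632099: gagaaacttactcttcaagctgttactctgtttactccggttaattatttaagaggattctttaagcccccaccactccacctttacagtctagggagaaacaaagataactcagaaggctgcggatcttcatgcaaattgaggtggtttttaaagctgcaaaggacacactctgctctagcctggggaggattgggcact
Tet3 chr6:83435300-83435500: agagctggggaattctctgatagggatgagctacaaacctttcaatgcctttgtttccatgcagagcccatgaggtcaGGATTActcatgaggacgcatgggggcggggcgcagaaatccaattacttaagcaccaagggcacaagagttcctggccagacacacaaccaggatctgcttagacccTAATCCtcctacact
Nipbl chr15:8346190-8346390: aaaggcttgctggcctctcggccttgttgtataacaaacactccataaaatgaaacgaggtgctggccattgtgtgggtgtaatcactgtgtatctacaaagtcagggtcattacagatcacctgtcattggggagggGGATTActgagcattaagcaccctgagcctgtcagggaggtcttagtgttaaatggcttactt
Kdm5b chr1:134567593-134567793: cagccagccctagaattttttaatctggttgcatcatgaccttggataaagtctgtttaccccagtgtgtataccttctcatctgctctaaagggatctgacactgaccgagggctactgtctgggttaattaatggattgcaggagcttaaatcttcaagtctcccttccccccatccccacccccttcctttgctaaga
The Tet3 window held 2 matches, 1 on each strand, and the Nipbl window 1. The other 5 windows, that of Tet2 included, held none, so the consensus occurred in 2 of the 7, beside 34.1% of all 2622 peaks called lower. Other motifs were searched on both strands too, and that of the GATA factors, with the letters AGATAA, occurred in the Arid2 and Satb1 windows. The SOX letters ACAAAG were in those of Arid2, Satb1, Tet3 and Nipbl. The FOX letters TGTTTAC were in those of Satb1 and Kdm5b, and the OTX letters reversed, ATTAGG, in that of Tet3. The Smarca5 window held none of the 7 motifs searched and was 69.7% G and C. A match is a description of letters and not of a bound site.

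The called peak with the smallest p belonged to Tet2, which encodes a TET dioxygenase that oxidises 5-methylcytosine. It lay at chr3:133465463-133465748 and was annotated to the 3′ untranslated region. The DMSO libraries held 47, 32 and 21 reads there and the dTAG13 libraries 4, 2 and 6. Every DMSO library was above every dTAG13 library. Its log2 fold change was -2.48 with an SE of 0.57 (adjusted p 0.00202), as given by the authors' deposited table.

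Arid2, a subunit of the SWI/SNF form known as PBAF, had its called peak in intron 3 of 4 of the annotated transcript, at chr15:96297172-96297363. Reads were 18, 13 and 12 in DMSO and 0 in every dTAG13 library. Counted against a floor of 3 reads per library, DMSO exceeded dTAG13 at least 3.23-fold. The fitted log2 fold change of -5.72 (SE 1.34, adjusted p 0.00269) by the authors' deposited table has no reads on 1 side, so its size depends on the fit and is no bound.

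Smarca5 encodes SNF2H, the ATPase of the ISWI remodellers. Its called peak was a 68-base peak at chr8:80738511-80738578, annotated as promoter and 880 bases from the nearest start site of the gene. The mean normalized count of this peak was 4.07. Reads were 6, 19 and 6 in DMSO and 0 in all dTAG13 libraries, at least 2.30-fold higher in DMSO against the same floor (adjusted p 0.0129 by the authors' deposited table). The main promoter peak of the gene, nearer its start site, had a mean normalized count of 59.3 and a log2 fold change of 0.34 (SE 0.23) by the authors' deposited table and was not called.

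Tet3, another TET dioxygenase, had its called peak in intron 2 of 10, at chr6:83435315-83435484, 6232 bases from its nearest start site. DMSO libraries held 16, 28 and 6 reads and dTAG13 libraries 2, 0 and 0. Per unit of size factor the DMSO signal was 17.1-fold higher, with an exact counting interval at 95% of 4.49 to 145. Such intervals cover counting error only, and 71.8% of the recovered values above 0 were even, so the reads need not be independent fragments. In the authors' deposited table its log2 fold change was -4.08 with an SE of 1.22 (adjusted p 0.0247).

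Satb1 encodes a nuclear protein that anchors chromatin loops. Its called peak at chr17:51631912-51632086 lay in intergenic DNA 110267 bases from the nearest Satb1 start site. An unnamed gene model (AC151267.2) starts nearer, 97141 bases away, so the assignment to Satb1 rests on the authors' gene column. Reads were 13, 21 and 17 in DMSO and 2, 0 and 2 in dTAG13, and the log2 fold change by the authors' deposited table was -3.14 (SE 0.91, adjusted p 0.0205).

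Nipbl, which loads cohesin onto DNA, had its called peak in intron 10 of 46, at chr15:8346216-8346364. The DMSO libraries held 6, 4 and 14 reads and the dTAG13 libraries none, at least 1.92-fold more in DMSO against the floor. Kdm5b, an H3K4 demethylase, had its called peak in intron 1 of 26, at chr1:134567601-134567785. It held 10, 6 and 7 reads in DMSO and none in dTAG13, at least 1.73-fold more in DMSO. Adjusted p-values by the authors' deposited table were 0.0270 for Nipbl and 0.0315 for Kdm5b. Both peaks were weak, with mean normalized counts of 3.39 and 3.07, and neither call was kept when peaks were centred by GC content. Leaving out peaks with a mean count under 5 removed both, so that setting could not test these calls.

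**Figure D1:**
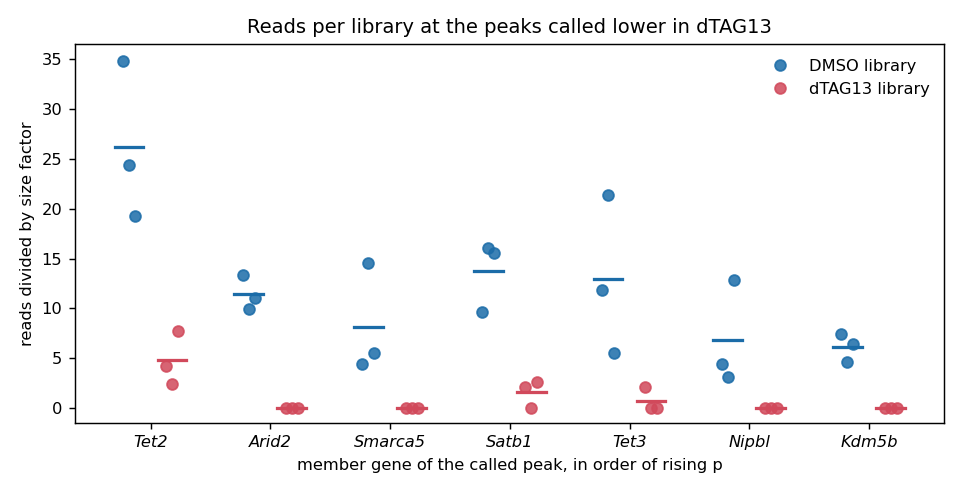
Reads recovered per library, divided by the library's size factor (y axis), at the 7 member peaks called lower in dTAG13 (x axis, by gene); points are libraries, 3 per group, and bars are group means. At all 7 peaks each DMSO library lies above each dTAG13 library, and at Arid2, Smarca5, Nipbl and Kdm5b all dTAG13 libraries lie at 0. The peaks were called by a p-value from these same libraries, so the separation adds no support to the calls.

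Counted by gene, 7 of the 57 members (12.3%) had a called peak. Among all genes with peaks 8.35% had a lower peak and 3.59% a higher one. Members had more peaks per gene than genes in general, a median of 3 against 2. All 7 called genes were among the 26 members with 4 or more peaks, of which they were 26.9%, beside 21.6% of all genes with as many peaks. No test was made of these differences.

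As deposited, all peaks had a median log2 fold change of -0.18. Moving that median to 0 left the 7 lower member peaks and called 3 higher, 2 of them at Rad21 and 1 at Chd1. Centring the peaks within each decile of GC content called 4 lower and 5 higher, with Tet2, Arid2, Smarca5 and Tet3 still lower and peaks of Rad21, Tet1, Chd7 and Hdac4 (2 peaks) higher. The Satb1, Nipbl and Kdm5b peaks were not called in that setting, at adjusted p-values of 0.128, 0.0606 and 0.0695. The share of lower among called member peaks was thus 100.0% as deposited, 70.0% and 44.4%, beside 72.1%, 51.2% and 38.0% among all called peaks.

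The peak with the highest mean normalized count of each member was not called in any of the 57. These 57 peaks had mean normalized counts of 8.38 to 176 (median 31.6), beside a median of 14.2 for the same peak of every gene. Their log2 fold changes by the authors' deposited table ran from -1.21 (Smarcb1, SE 0.55) to 1.21 (Hdac9, SE 0.64), with a median of -0.01, and 48 of the 57 lay within 0.5 of 0. For all genes that median was -0.02. The smallest adjusted p was 0.0775, at Eed, while 3.39% of such peaks were called lower and 1.90% higher over all genes. In 46 of the 57 genes this peak was annotated as a promoter peak, within 1000 bases of a start site.

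**Figure D2:**
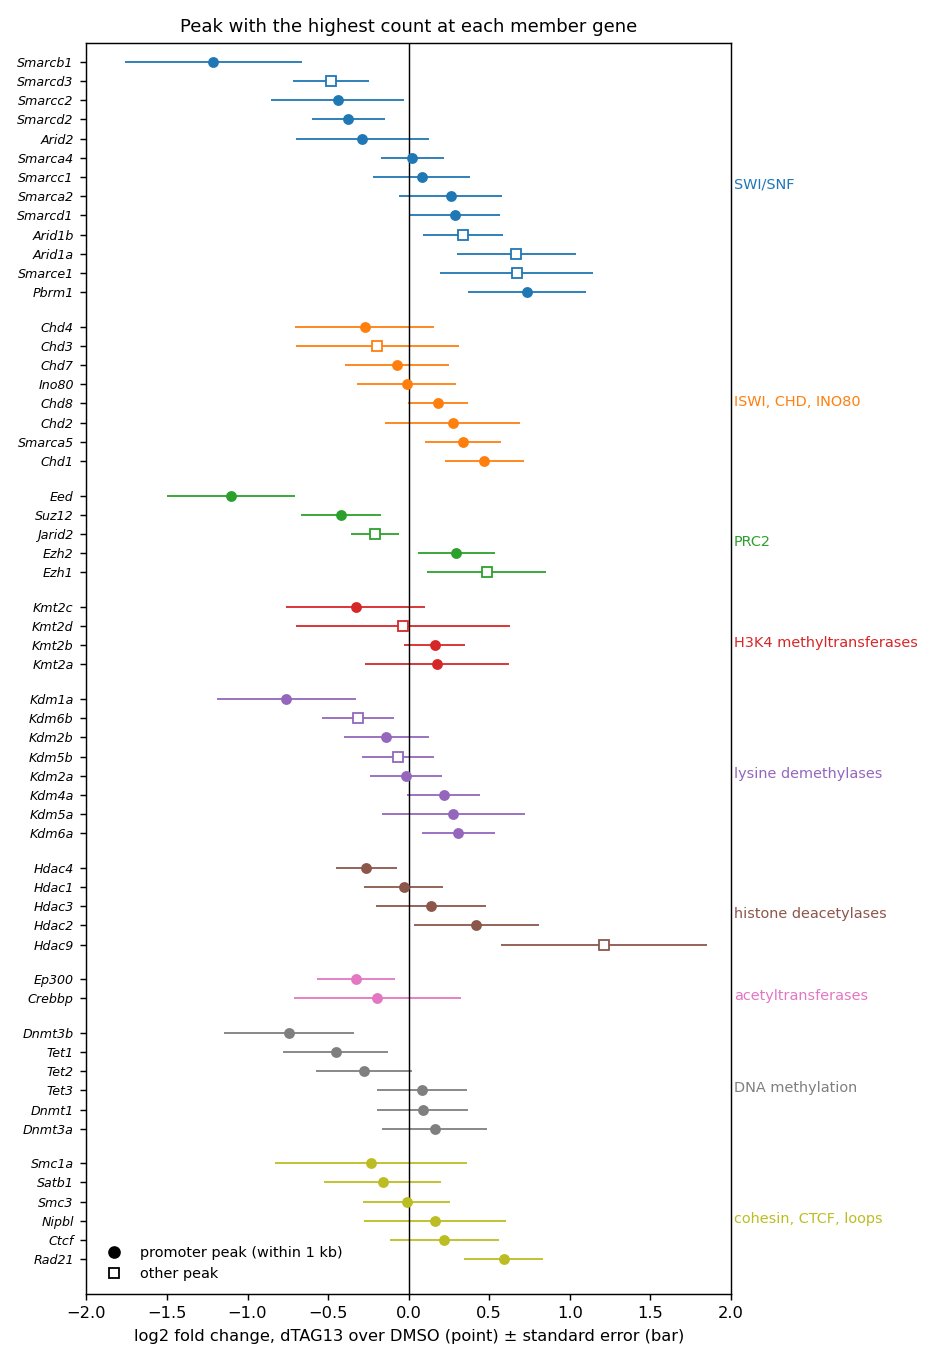
Log2 fold change of dTAG13 over DMSO (x axis) at the peak with the highest mean normalized count of each of the 57 member genes (rows, grouped and coloured by role), with the standard error of the authors' deposited table as bars. Filled circles are promoter peaks and open squares other peaks; 48 of the 57 points lie within 0.5 of 0.

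SWI/SNF holds 13 members with 46 peaks, of which 1 (2.17%, at Arid2) was called lower. For this role and those below, the shares over all peaks tested are 3.79% called lower and 1.47% higher. The roles were not tested against each other. Smarca4 and Smarca2 encode the alternative ATPases of the complex, BRG1 and BRM. The Smarca4 promoter peak had a mean normalized count of 78.8, or 9.95 per 100 bases, and a log2 fold change of 0.02 (SE 0.20) by the authors' deposited table. For Smarca2, which had 7 peaks, 4 of them annotated as promoter, the peak with the highest count stood at 0.26 (SE 0.32) in the same table. At another Smarca2 promoter peak the reads were 17, 12 and 16 in DMSO and 11, 14 and 7 in dTAG13. With the smaller dTAG13 size factors in view, the normalized levels there overlapped (log2 fold change 0.05, SE 0.51 by the authors' deposited table).

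Smarcb1, a core subunit, had the lowest value among these highest-count peaks. Its promoter held 17, 36 and 20 reads in DMSO and 14, 2 and 6 in dTAG13, with a log2 fold change of -1.21 by the authors' deposited table that did not pass (SE 0.55, adjusted p 0.184). The Smarcc1 promoter stood at 0.08 (SE 0.30) by the authors' deposited table, while a peak in its intron 24 of 27 held 16, 15 and 12 reads in DMSO and 0, 2 and 4 in dTAG13 (adjusted p 0.0846). Smarcc1 encodes a scaffold subunit, BAF155. Smarcd1 encodes an accessory subunit, BAF60A. Its 2 promoter peaks stood at 0.29 and -0.22, and the peaks annotated to intron 3 of 11 at -1.22 (SE 0.55) and -4.15 (SE 1.75), neither called by the authors' deposited table. These peaks lie 13148 and 7687 bases from the Smarcd1 start, inside the neighbouring gene Asic1.

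The related subunits Smarcd2 and Smarcd3 (BAF60B and BAF60C) had highest-count peaks at -0.37 (SE 0.23) and -0.48 (SE 0.24) by the authors' deposited table, the latter in intron 2 of 13 and not at a promoter. The scaffold Smarcc2 (BAF170) had 1 peak, its promoter, with 24, 34 and 26 reads in DMSO and 22, 12 and 9 in dTAG13. The accessory subunit Smarce1 (BAF57) had 4 peaks, all uncalled, the one with the highest count at 0.67 (SE 0.47) by the authors' deposited table.

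Other subunits set the form of the complex. Arid1a, of the BAF form, had 4 peaks with log2 fold changes of -0.56 to 0.67 by the authors' deposited table. Arid1b, its paralogue, had 6 peaks and none at a promoter, and 4 of its 6 lay 48181 to 86013 bases from its start with another gene's start nearer. Pbrm1 belongs to the PBAF form. Its peak with the highest count lies 2 bases from the start of Gnl3 and 47 from its own, and stood at 0.74 (SE 0.37, adjusted p 0.240) by the authors' deposited table.

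All 4 peaks of Arid2 were below 0. Its promoter peak held 43, 24 and 20 reads in DMSO and 18, 9 and 21 in dTAG13, a log2 fold change of -0.29 (SE 0.41) by the authors' deposited table. A peak in intron 16 of 20 held 44, 32 and 28 reads in DMSO and 0, 13 and 6 in dTAG13. The deposited SE there was large (log2 fold change -1.83, SE 1.09, adjusted p 0.354, all from the authors' deposited table), and the dTAG13 libraries differed among themselves. The peak in intron 11 of 20 held 2, 4 and 8 reads in DMSO and none in dTAG13, at least 1.12-fold more in DMSO against the floor, and was not called.

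**Figure D3:**
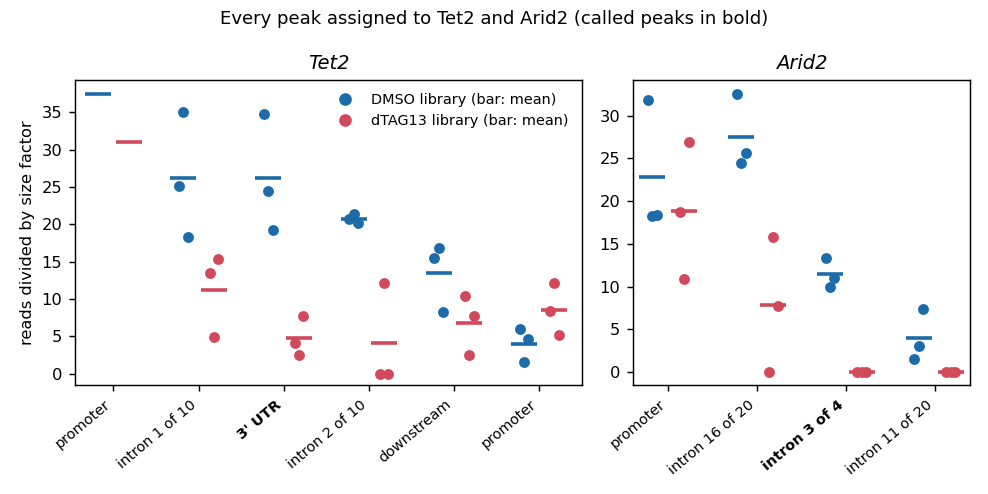
Reads divided by size factor (y axis) at each peak assigned to Tet2 (left, 6 peaks) and Arid2 (right, 4 peaks), ordered by falling mean normalized count and labelled with their annotation; points are libraries, bars are group means, and called peaks are in bold. The first Tet2 peak has group means only; at the promoters with the highest count the groups lie close together, and the lower dTAG13 values are at the introns and the 3′ end.

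Among the ISWI, CHD and INO80 remodellers, 8 members had 32 peaks, and of the 31 tested 1 (3.23%, at Smarca5) was called lower. Chd8, a CHD-family ATPase, had the second highest count per length of all member peaks. Its promoter had a mean normalized count of 102, or 21.8 per 100 bases, and a log2 fold change of 0.18 (SE 0.18) by the authors' deposited table. Chd4, the ATPase of the NuRD complex, had 1 peak, its promoter, with 36, 28 and 14 reads in DMSO and 11, 20 and 12 in dTAG13. Chd2 likewise had a promoter peak alone, and Chd3 a single peak 1823 bases from its start. The log2 fold changes of these 3 peaks by the authors' deposited table were -0.27, 0.27 and -0.20, each smaller than its SE.

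Chd7, a remodeller needed for neural crest and inner ear development, had 11 peaks that pointed both ways. Its promoter peak stood at -0.07 (SE 0.32) by the authors' deposited table. A peak in intron 1 held 2 reads in every DMSO library and 10, 4 and 8 in the dTAG13 libraries (log2 fold change 2.41, SE 0.91, adjusted p 0.0953 by the authors' deposited table). Another in the same intron held 9, 9 and 4 reads in DMSO and 1, 0 and 0 in dTAG13. Its ratio was 15.0 in favour of DMSO, with an exact counting interval of 2.43 to 621. Neither passed, and the groups did not overlap at either.

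Chd1, an H3K4me3-binding remodeller, had 7 peaks in the table. Of its 4 promoter-annotated peaks, 2 lie 1617385 and 1617791 bases from its start, beside the starts of a gene model (AC154200.1) and of Riok2, and 1 of these has the highest count assigned to Chd1. At the Chd1 start lay 2 peaks, neither called. By the authors' deposited table, 1 had a mean normalized count of 27.9 and a log2 fold change of 0.27 (SE 0.34). The other had a mean normalized count of 25.7 and a log2 fold change of -0.41 (SE 0.36). An intergenic peak 47586 bases from the Chd1 start held 6, 10 and 8 reads in DMSO and 15, 15 and 14 in dTAG13. There every dTAG13 library was above every DMSO library in reads, although its size factor was smaller (log2 fold change 1.42, SE 0.53, adjusted p 0.0899 by the authors' deposited table). Ino80, the ATPase of the complex of that name, had a promoter peak at -0.01 (SE 0.31) by the authors' deposited table.

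PRC2 had 5 members and 34 peaks, none of them called in either direction. At PRC2, 4 of the peaks were lower and 1 higher at an unadjusted p under 0.05, where 12.7% and 7.00% of all peaks were. Ezh2, the main H3K27 methyltransferase of dividing cells, had a promoter peak at 0.29 (SE 0.24) by the authors' deposited table and Suz12, a core subunit, one at -0.42 (SE 0.25). Ezh1, the other H3K27 methyltransferase, had 4 peaks at -0.64 to 0.48 by the authors' deposited table. Eed reads H3K27me3 and had 7 peaks, 4 annotated as promoter. The one with the highest count, 569 bases from a start site of an Eed transcript, held 36, 65 and 40 reads in DMSO and 6, 20 and 18 in dTAG13. Every DMSO library was above every dTAG13 library, and the log2 fold change of -1.10 (SE 0.40, adjusted p 0.0775) by the authors' deposited table did not pass. Computed from the reads over size factors, the value was -1.08, and leaving out 1 library at a time moved it between -1.36 and -0.67. The 3 other promoter-annotated Eed peaks stood at 0.20, 0.70 and 0.21 by the authors' deposited table.

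Jarid2, a PRC2 cofactor, had the most peaks of all members, 20 of the 240. Its intron 4 of 18 held the peak with the highest count of the set, a 116-base peak with a mean normalized count of 176, or 151 per 100 bases. Only 0.0326% of all peaks had as high a count per length, and the next member peak had 21.8. The group means were 188 in DMSO and 163 in dTAG13, and the log2 fold change by the authors' deposited table was -0.21 (SE 0.15, adjusted p 0.456). Of the 20 peaks, 14 were below 0. Among all 20, 6 lay 77713 to 126603 bases from the nearest Jarid2 start with the start of Gm47805 nearer. One of the 6 held 20, 11 and 10 reads in DMSO and 2, 4 and 0 in dTAG13 (adjusted p 0.104 by the authors' deposited table), and another 6, 6 and 0 in DMSO and 8, 12 and 5 in dTAG13 (adjusted p 0.223 there). Another, in intron 2 of 3, held 7, 13 and 0 reads in DMSO and 0, 0 and 1 in dTAG13, a ratio of 13.7 with an exact counting interval of 2.19 to 567. Of its 20 DMSO reads, 13 came from 1 library. A stronger Jarid2 peak, with a mean normalized count of 34.8, stood at -0.71 (SE 0.30, adjusted p 0.149) by the authors' deposited table. None of the 6 promoter-annotated Jarid2 peaks was called.

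The 4 H3K4 methyltransferases had 8 peaks, none called. Kmt2b, which acts at CpG-rich promoters, had a promoter with a mean normalized count of 84.4 and a log2 fold change of 0.16 (SE 0.19) by the authors' deposited table. The promoter peak of Kmt2c, an enhancer H3K4 methyltransferase, held 26, 34 and 17 reads in DMSO and 9, 18 and 14 in dTAG13. A peak in its intron 1 of 58 held 6, 12 and 11 reads in DMSO and 2, 0 and 0 in dTAG13. That is a ratio of 9.91 with an exact counting interval of 2.51 to 85.7, and an adjusted p of 0.0985 by the authors' deposited table. Peaks of Kmt2a and Kmt2d stood between -0.91 and 0.18 by the authors' deposited table.

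Lysine demethylases counted 8 members with 31 peaks, of which 1 (3.23%, at Kdm5b) was called lower. The highest-count peaks had log2 fold changes of -0.01 (SE 0.22) at Kdm2a, 0.22 (SE 0.23) at Kdm4a, 0.31 (SE 0.23) at Kdm6a, 0.28 (SE 0.44) at Kdm5a and -0.07 (SE 0.22) at Kdm5b by the authors' deposited table. Kdm2a demethylates H3K36, Kdm4a H3K9 and H3K36, Kdm6a H3K27, and Kdm5a and Kdm5b H3K4. Kdm1a, the LSD1 demethylase, had 1 peak, its promoter, with 34, 25 and 26 reads in DMSO and 8, 14 and 12 in dTAG13. It did not pass (log2 fold change -0.76, SE 0.43, adjusted p 0.320 by the authors' deposited table). The reads of the groups did not overlap, which adds no support beyond the p-value. How often groups separate in this way was not counted over all peaks. Kdm6b, an inducible H3K27 demethylase, had 8 peaks and none within 1000 bases of a start by the authors' annotation, with log2 fold changes of -0.94 to 0.15 by the authors' deposited table. Kdm5b had a second weak peak, in intron 14 of 26, with 13, 12 and 2 reads in DMSO and 0, 2 and 0 in dTAG13, which was not called (ratio 9.23, exact counting interval 2.32 to 80.1). Kdm2b, a variant PRC1 subunit that binds unmethylated CpG, had 8 peaks with log2 fold changes of -2.89 to 1.21 by the authors' deposited table and none called.

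Histone deacetylases counted 5 members with 26 peaks, none called, with 1 lower and 2 higher at an unadjusted p under 0.05. Over all peaks those shares were 12.7% lower and 7.00% higher. The class I enzymes Hdac1 and Hdac3 each had 1 peak, at the promoter, with log2 fold changes of -0.03 (SE 0.25) and 0.14 (SE 0.34) by the authors' deposited table. Hdac2, of the same class, had 3 promoter-annotated peaks and 1 intergenic peak, at -0.38 to 0.69 by the authors' deposited table. Hdac4, a class IIa enzyme, had 11 peaks. Its promoter had a mean normalized count of 97.6 and stood at -0.26 (SE 0.19) by the authors' deposited table. A peak in its intron 2 of 26 held 4, 7 and 8 reads in DMSO and 12, 10 and 14 in dTAG13, with no overlap between groups (log2 fold change 1.46, SE 0.60, adjusted p 0.133 by the authors' deposited table). Without 1 library at a time, its log2 ratio of reads over size factors ran from 1.16 to 1.77. Hdac9, also class IIa, had 9 weak peaks with mean normalized counts of at most 9.69.

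The 2 acetyltransferases had 7 peaks, none called, with 2 lower at an unadjusted p under 0.05, beside 12.7% of all peaks. Ep300 encodes p300. The main Ep300 promoter peak stood at -0.33 (SE 0.24) by the authors' deposited table. A peak beside it, at the start of the small gene model Gm23880 and 78 bases from an Ep300 start, held 29, 28 and 26 reads in DMSO and 11, 6 and 6 in dTAG13. The groups did not overlap, and the adjusted p by the authors' deposited table was 0.0760 (log2 fold change -1.32, SE 0.47). Crebbp, which encodes CBP, had 4 promoter-annotated peaks. Of these, 1 held 12, 10 and 18 reads in DMSO and 4, 4 and 0 in dTAG13 (log2 fold change -1.83, SE 0.80, adjusted p 0.163), while the others stood between -0.82 and 0.74 by the authors' deposited table.

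Enzymes of DNA methylation counted 6 members with 29 peaks, and 2 of the 28 tested (7.14%, at Tet2 and Tet3) were called lower. Over all peaks tested the share called lower was 3.79%. All their promoter peaks with the highest count were uncalled: Dnmt1 (0.09, SE 0.28), Dnmt3a (0.16, SE 0.33), Dnmt3b (-0.74, SE 0.41), Tet1 (-0.45, SE 0.33), Tet2 (-0.28, SE 0.30) and Tet3 (0.08, SE 0.28), as log2 fold changes by the authors' deposited table. Dnmt1 maintains methylation after replication, and Dnmt3a and Dnmt3b set it anew. Tet2 had further peaks below 0, 5 of its 6 in all. In intron 1 of 10 the reads were 34, 46 and 20 in DMSO and 13, 4 and 12 in dTAG13 (log2 fold change -1.22, SE 0.46, adjusted p 0.0897 by the authors' deposited table). In intron 2 of 10 they were 28, 28 and 22 in DMSO and 0, 10 and 0 in dTAG13. Here the dTAG13 libraries differed among themselves, the deposited SE was 1.74, and its adjusted p was 0.474 by the authors' deposited table.

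Tet1 and Dnmt3a had peaks on the higher side. In intron 2 of 10 of Tet1 the reads were 2 in every DMSO library and 14, 6 and 4 in the dTAG13 libraries (log2 fold change 2.50, SE 0.91, adjusted p 0.0797 by the authors' deposited table). At Dnmt3a, a promoter-annotated peak held 2, 0 and 6 reads in DMSO and 10, 4 and 10 in dTAG13, and an exon peak 2, 2 and 1 against 6, 5 and 7. Their adjusted p-values were 0.149 and 0.132 by the authors' deposited table. None of these 3 peaks was called. All 3 were in the dTAG13 peak list alone, as were 11.8% of all peaks. That list was called from these same libraries, so membership adds no support.

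Cohesin, CTCF and loop organisers counted 6 members with 27 peaks, of which 2 (7.41%, at Nipbl and Satb1) were called lower, beside 3.79% of all peaks tested. The promoters of Ctcf, the insulator protein, and of Smc3, a cohesin ATPase, stood at 0.22 (SE 0.34) and -0.01 (SE 0.27) by the authors' deposited table. Smc1a, the other cohesin ATPase, had 1 peak, at its promoter on chromosome X, with 17, 10 and 16 reads in DMSO and 16, 8 and 2 in dTAG13. Rad21, the kleisin that closes the cohesin ring, had 3 peaks, all above 0. Its promoter stood at 0.59 (SE 0.24, adjusted p 0.134) by the authors' deposited table. An intergenic peak 39352 bases away held 3, 0 and 0 reads in DMSO and 15, 2 and 6 in dTAG13. It had the highest log2 fold change of all member peaks, 3.47 (SE 1.18, adjusted p 0.0576 by the authors' deposited table), and 15 of its 23 dTAG13 reads came from 1 library. The ratio was 11.2 with an exact counting interval of 3.39 to 58.3. The remaining Rad21 peak, close by, held 0, 1 and 4 reads in DMSO and 2, 6 and 6 in dTAG13.

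**Figure D4:**
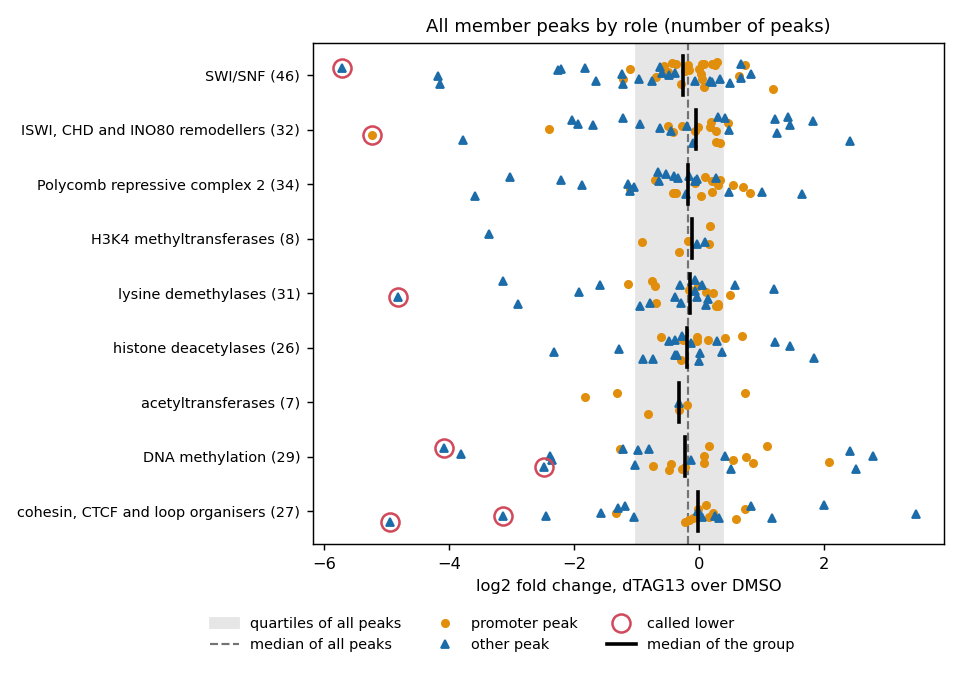
Log2 fold change of dTAG13 over DMSO by the authors' deposited table (x axis) of all 240 member peaks, by role (rows, with the number of peaks); circles are promoter peaks, triangles other peaks, red rings the 7 called lower, and black bars group medians, over the median (dashed) and quartiles (grey) of all peaks. Group medians run from -0.33 for the acetyltransferases to -0.02 for cohesin, CTCF and loop organisers, around the -0.18 of all peaks.

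Promoter peaks and other member peaks had different medians. Of the 240, 108 (45.0%, Wilson interval at 95% 38.8 to 51.3%) were annotated as promoter, beside 30.7% of all peaks, and 54 of the 57 members had such a peak. The 3 without one were Arid1b, Chd3 and Kdm6b. Member promoter peaks had a median log2 fold change of -0.01 by the authors' deposited table, and 1 of 108 (0.926%) was called lower, beside 1.0% of all promoter peaks, of which 1.15% were called higher. The 132 member peaks elsewhere had a median of -0.36, and 6 of the 130 tested (4.62%) were called lower, beside 5.06% of all such peaks, of which 1.62% were called higher. Of those 132, 88 were below 0, and the 63 in introns had a median of -0.48, with 4 of the 62 tested (6.45%) called lower, beside 5.6% of all intron peaks. The same medians over all peaks were 0.03 at promoters, -0.38 elsewhere and -0.44 in introns, so each class of member peaks lay near the same class of all peaks.

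The classes also differ in depth and base composition, which move with the fold change. Median mean normalized counts of member peaks were 19.0 at promoters and 6.31 elsewhere, and median GC contents 67.9% and 52.3%. All 7 calls were among the 175 member peaks with a mean normalized count under 20, and none among the 65 above it, where the median log2 fold change was 0.01 by the authors' deposited table. The 7 were 4.05% of the 173 tested under 20, near the 4.01% called lower over all peaks under 20. Over all peaks with a count of 20 or more, 2.82% were called lower and 2.43% higher. The part of depth and GC content in the calls was not tested beyond the GC setting above.

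**Figure D5:**
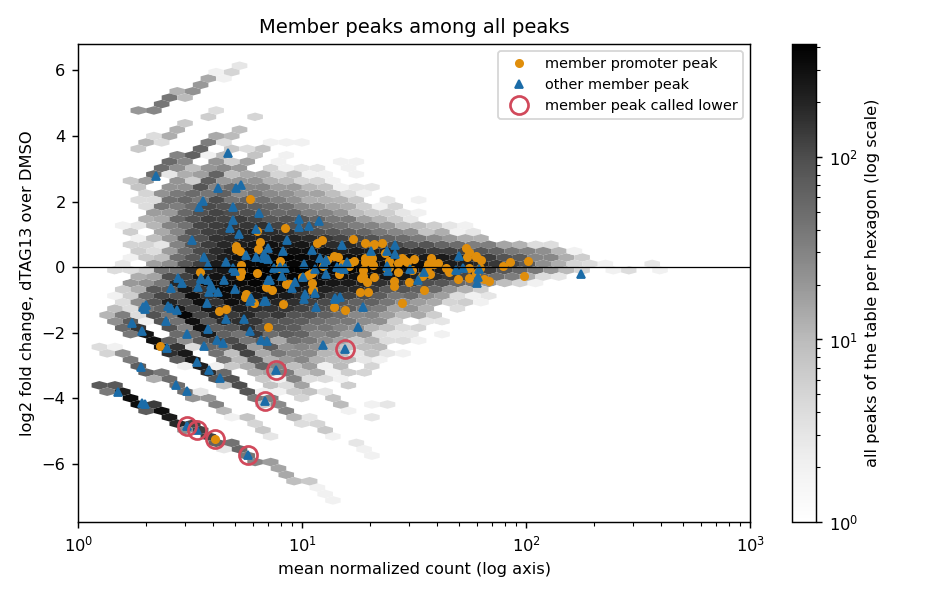
Log2 fold change by the authors' deposited table (y axis) against mean normalized count (x axis, log scale) of member promoter peaks (circles) and other member peaks (triangles) over all peaks of the table with counts up to 1000 (grey hexagons, darker for more peaks); red rings mark the 7 member peaks called lower. All 7 have mean counts under 20, and the 4 lowest lie on the line of peaks with no reads in dTAG13.

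The authors' peak lists were compared next. Of the member peaks 55.4% (Wilson interval 49.1 to 61.6%) overlapped a peak of both groups' lists, 34.2% of the DMSO list alone and 10.4% of the dTAG13 list alone, beside 48.2%, 40.1% and 11.8% of all peaks. At member promoters 74.1% were in both lists, and elsewhere 40.2%, beside 71.0% and 38.1% over all peaks. The lists were called from pooled libraries, 1 list per group, so they have no replicate error. The size factors above, from reads in peaks, were larger for the DMSO libraries. The part of depth in list membership was not tested.

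The OTX consensus was then counted near all member peaks. It occurred in 21 of 240 windows (8.75%, Wilson interval 5.79 to 13%), beside 8.85% of all windows of the same length. By class, it was in 2.78% of member promoter windows and 13.6% of the others, beside 3.98% and 11% over all peaks. The 21 member peaks with the consensus had a median log2 fold change of -0.70 by the authors' deposited table, 16 of them below 0, while those without had -0.13. Over all peaks the medians were -1.31 with the consensus and -0.12 without it. The reversed letters ATTAGG, of the same composition and able to overlap it by the shared letters ATTA or GG, were in 5.83% of member windows and 7.09% of all windows.

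The other motifs searched were GATA (11.2% of member windows, 15.7% of all), SOX (17.1% and 16.4%), FOX (5.42% and 5.34%), GGAATG for TEAD (9.17% and 11.6%) and AGGTGTGA for T-box factors (1.67% and 1.71%). In these windows the Wilson interval of the members included the share of all peaks for each motif. For GATA, the nearest to an exception, it ran from 7.85 to 15.9%. Within the peaks as deposited GATA was in 7.92% of member peaks (Wilson interval 5.13 to 12%), beside 12.7% of all peaks. The intervals treat peaks of the same gene as independent, so they are no test of the set. Shares within the peaks as deposited were not split by class, but those in windows were. By class, the GATA letters were in 1.85% of member promoter windows and 18.9% of the others, beside 4.81% and 20.5% over all peaks. Promoters were 45.0% of member peaks and 30.7% of all.

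Which gene a peak belongs to depended on the annotation for a small part of the set. By the start sites of GENCODE release M21, 206 of the 240 peaks (85.8%) were nearest to a start site of the same member, beside 84.7% of all peaks, and 34 were nearest to another gene. Assigned to the nearest start, 209 peaks belonged to members and 6 of them were called lower, the Satb1 peak being the one lost.

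A wider list of 123 further chromatin genes was examined for comparison. Of these, 114 had peaks, 371 in all. Of the 365 peaks tested, 3 (0.822%) were called lower and 2 (0.548%) higher, beside 3.79% and 1.47% of all peaks tested. Promoter peaks were 50.9% of the list, beside 30.7% of all peaks. At promoters 0.0% were called lower, beside 1.0% over all peaks, and elsewhere 1.7%, beside 5.06%. Among the lower ones were peaks at Kat7, a histone acetyltransferase (log2 fold change -5.66, SE 1.37), and Kdm4b, an H3K9 demethylase (-1.36, SE 0.35), by the authors' deposited table. The higher ones were at Kat2b, an acetyltransferase also named PCAF (1.25, SE 0.37), and Phf19, a PRC2 cofactor (0.94, SE 0.30), by the authors' deposited table. The genes with a lower peak were 2.63% of the 114, beside 8.35% of all genes with peaks.

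The table also marks genes as down or up by differential expression, with no account of how. Of the 57 members, 1 (1.75%) was marked down, Tet2, and 4 (7.02%) up: Smarca2, Chd3, Kdm2b and Hdac9. Over all genes with peaks, 1.38% were marked down and 1.6% up. Tet2 was also the member with the smallest p among the called peaks. The share of all genes marked down that have a peak called lower is not given here. A link between mark and call was not tested. None of the 4 members marked up had a called peak, and the smallest adjusted p among their peaks by the authors' deposited table was 0.191, at Kdm2b.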

How the data were processed

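ATAC-seq was analysed for 6 libraries, 3 treated with DMSO and 3 with dTAG13. The submitters' processing notes name fastp, Bowtie2, MACS2, featureCounts, HOMER 4.11 and ChIPseeker and the build mm10; their settings, read filters, duplicate removal and any shift of the cut site are not given in the sources used here. Per the file headers, the deposited table holds 1 mean signal per peak (a mean normalized count), a log2 fold change with its SE, a score equal to their ratio, a p-value and an adjusted p-value, under the column names of DESeq2 results. The score matched that ratio within 8.72e-07, and the adjusted p matched a Benjamini-Hochberg adjustment over 69128 peaks within 7.87e-06. The other deposited columns are positions, annotations and gene marks, whose making is not stated. Peak lists were deposited as 1 pooled list per group, and an overlap of 1 base counted as shared.

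From these values whole reads per library were recovered by searching for the counts and size factors that return the deposited mean, fold change and SE. This succeeded for 194 of 240 member peaks, 184 by a match to the fitted model, 7 with 1 group at 0 reads and 3 as the only combination. In simulated peaks with more than 3 reads in each group, 287 of 300 were recovered and 0 came out wrong. Their fold changes and SEs were made with the same model that the search uses. Whether the authors' fit follows that model was thus not tested by the simulation. At the matched member peaks the recomputed log2 fold change differed from the deposited one by at most 1.6e-05, and a small difference was required for a match. Recovery with fewer reads in a group was not simulated. The called peaks of Arid2, Smarca5, Tet3, Nipbl and Kdm5b are of that kind. Centring was tested on simulated data of 12610 peaks with mean normalized counts over 20. There 200 of 200 peaks changed by 8 standard errors were called, with 14 false calls. Weaker peaks, smaller changes and centring by GC content were not simulated. Sequences and motifs came from GRCm38 and start sites from GENCODE M21, with which 84.0% of the transcript versions in the authors' annotation matched. Python 3.11.15, numpy 2.4.6, pandas 2.3.3, scipy 1.17.1, pysam 0.24.0 and matplotlib 3.10.9 were used.

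The members and lists were chosen with earlier results of these data known. Named were the called member peaks, each member's peak with the highest mean normalized count, the peak with the smallest p in each role, the 5 members with the most peaks, and other chromatin genes with a call, of which 1 is not reported here; further peaks were chosen after their values were seen. Separation of the groups at a named peak is thus no support beyond its p-value. Alternatives varied the filter on weak peaks, the centring, the threshold, the gene assignment, the overlap and the motif window.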

Additional observations from a re-analysis of the deposited data

How the results depend on the processing

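As deposited, 7 member peaks at 7 genes were called lower and 0 higher. With peaks of a mean normalized count of at least 5 alone, 4 were lower, at 4 genes, the weaker peaks of Smarca5, Nipbl and Kdm5b falling below that count. Centring on the median of all peaks (-0.18) gave 3 higher beside 7 lower, and centring each decile of GC content (medians -0.91 to 0.04) gave 4 lower and 5 higher, so that higher calls then outnumbered lower ones. Centring on all peaks also moved the median log2 fold change of member peaks from -0.16 to 0.02 and that of member promoter peaks from -0.01 to 0.17. None of the 7 called peaks changed sign under these centrings. Over all peaks the lower share of calls was 72.1% as deposited, 51.2% and 38.0% under these centrings and 80.0% when centred on the peaks of both lists (median 0.09), which added a lower Eed peak (adjusted p 0.0481). At an adjusted p under 0.01, 2 were lower, at 2 genes, and at 0.1, 12 were lower and 4 higher, at 15 genes. The share of member peaks in both lists was 44.2% where 50% of each peak had to overlap. The OTX consensus was in 5.0% of the peaks as deposited and 3.75% of windows of 50 bases on each side, beside 7.07% and 5.02% of all peaks. The causes of these shifts, beyond fewer peaks tested or shorter sequence, were not tested.

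Leaving out 1 library at a time, chosen after seeing the data, gave log2 ratios of reads over size factors of -2.99 to -2.14 at Tet2, -3.72 to -2.57 at Satb1, -1.36 to -0.67 at Eed (the last without the dTAG13 library of the largest size factor), 1.16 to 1.77 at Hdac4 and -1.57 to -1.22 at Ep300. No test was refitted without a library, since reads were recovered for weak peaks alone. No paired analysis was possible because the files hold no values by replicate number. All 7 calls had mean normalized counts under 20, and 4 had no reads in dTAG13, so the size of those 4 is known only as a bound.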
